A study of Mus musculus with 2 samples.

Results

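Mouse chromosome 8 was followed from its centromeric end to its distal end through its contacts with chromosome 1 in embryonic stem (ES) cells. The chromosome was chosen by a measured value, its raised share of contacts in the *Lin28a* knockout library, and the level of that share is therefore a description. Its members are the 1 Mb bins of chromosome 8 in the mm10 assembly. Of its 130 bins, 3 held no known bases, and 127 held at least 100 read pairs in each library and were used. Chromosomes 2 to 19 together had 2184 such bins. A member's value rests on read pairs with the first end on proximal chromosome 1, from 3 to about 91 Mb, and the second end on chromosome 8. A stretch of 20 kb near the distal end of chromosome 8 was left out (its position is given with the processing).

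Hi-C cross-links the DNA of a nucleus, ligates neighbouring pieces and reads the joined molecules from both ends, and a read pair then stands for 1 contact. Contacts between different chromosomes (trans contacts) are rare for any given pair of positions. Summed over a long stretch they follow, among other things, how many copies of that stretch a nucleus holds. Gains of chromosome 8 are among the most frequent karyotype changes of mouse ES cells in culture, where cells with the extra copy can overgrow the others. LIN28A is an RNA-binding protein of pluripotent cells, known for blocking the maturation of let-7 microRNAs.

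One group was wild-type ES cells and the other ES cells with a *Lin28a* knockout, with 1 library each. Both were grown for 2 days on gelatin over mouse embryonic fibroblasts (feeder cells) in LIF/2i medium, which holds leukemia inhibitory factor and 2 kinase inhibitors and keeps the naive state. Per the study's methods, knockout ES cells were made with a guide RNA against the *Lin28a* exon that comes second, and clones were picked. The methods name E14 as the ES line unless another is stated. The line and the number of clones behind these libraries, and the share of feeder cells left at fixation, are not given in the sources used here. Per the labels each group had 2 replicates, but each gave 1 list of pairs that names no replicate, so no test between the groups was made. Intervals (95%) cover only the error of counting, except where the spread over bins is named. Neither read pairs nor bins are replicates of a condition.

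The wild-type list held 2304445 trans pairs of proximal chromosome 1 and the knockout list 1764628. The read names showed 2 sequencing runs in each. The targeted gene could not be checked, because its chromosome was seen only as a trans partner and a small edit leaves no mark in contact counts. Feeder cells and other cell types could not be told apart in contact counts.

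An end is counted where the enzyme used to cut the nuclei had a site. The fragment numbers in the lists matched the count of GATC sequences along chromosome 8 exactly for 94.3% of ends there and within 1 for 99.8%. The mm10 sequence of the chromosome has 310989 such sites, and the 127 bins hold 942 to 3115 of them, with a median of 2441. Every 1 Mb bin of chromosomes 2 to 19 with known bases holds the sequence (100%). The sites nearest the middle of the highest, the next highest and the lowest bin are shown as examples of what was counted, each with 30 bases of the plus strand and GATC in capitals. The first lies at chr8:106499922-106499951, the next at chr8:97499598-97499627 and the last at chr8:115499889-115499918.
Highest bin: ttgcttccagtgaGATCtgaggtcttgtga
Next highest bin: GATCtcaatccagGATCagaggcagaactc
Lowest bin: agtaatggagtctGATCtagtgtgaaaagg
The bins around these sites hold 2538, 2484 and 2426 sites, numbers close to one another. Within 25 kb of the site in the highest bin there were 44 wild-type and 49 knockout pairs. Around the site in the lowest bin there were 55 and 48.

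Chromosome 8 took 5.38% (5.35 to 5.41) of the trans pairs in the wild-type library, which is 124020 pairs. In the knockout library it took 7.23% (7.19 to 7.27), which is 127539 pairs. The share was thus higher in the library with fewer trans pairs. To set it against the rest of the genome, the ratio of shares, knockout over wild-type, was divided by the median ratio of 16 reference chromosomes (2 to 19 without 6 and 8). Chromosome 6 was left out of the reference because its own share was raised. This relative ratio was 1.39 (1.38 to 1.40) for the chromosome as a whole. The 16 reference chromosomes lay between 0.958 and 1.09, with an SD of 0.034.

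The profile of pairs along chromosome 8 had nearly the same shape in both libraries. Across the 127 bins, log2 pairs of the libraries had a Pearson correlation of 0.967, against 0.911 to 0.986 on the reference chromosomes. Bins held 297 to 1615 pairs in the wild-type library, with a median of 962. They held 307 to 1822 in the knockout library, with a median of 959. The lowest count in each library was that of the last bin, which is cut short by the end of the chromosome at 129401213. Both libraries had peaks of pairs near 13, 25 and 106 Mb and a trough at 21 Mb, where repeated alpha-defensin genes stand.

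**Figure D1:**
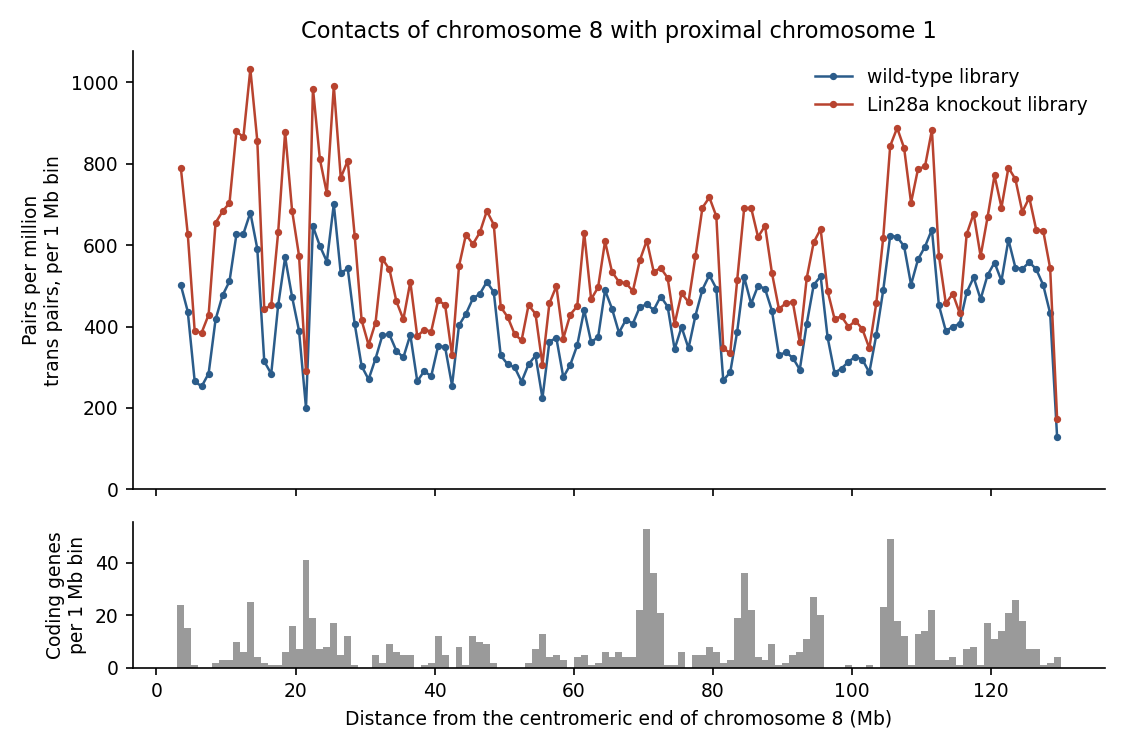
Read pairs per 1000000 trans pairs in each 1 Mb bin of chromosome 8 (upper panel, one line per library) and the number of protein-coding genes in the same bins (lower panel), against distance from the centromeric end in Mb. The knockout line runs above the wild-type line along the whole chromosome while both share their peaks and troughs, such as the peak near 106 Mb.

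Along the chromosome each bin was divided by the median of the reference chromosomes at the same distance from the centromeric end, since the ratio of shares declined with that distance. Undivided, the last 20 Mb were lower than the first 20 Mb on all 16 reference chromosomes, by -0.39 to -0.04 on the log2 scale, and by -0.21 on chromosome 8. The reference median was 1.10 at 3 Mb and 0.841 in the last bin, where 6 reference chromosomes are long enough to give a value. Before the division the ratio on chromosome 8 ran from 1.06 to 1.59, with a median of 1.34. After it the bins ran from 1.17 to 1.66, with a median of 1.40 and quartiles of 1.33 and 1.48. No bin had an interval that includes 1 (0 of 127). Since this contrast chose the chromosome, and the count is not given for other chromosomes, nothing is read from it.

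A relative ratio of 1.2 was taken as the mark of a raised bin. Of the 127 bins of chromosome 8, 126 were at 1.2 or more (99.2%). Over chromosomes 2 to 19 the share was 13.3% (290 of 2184), and since this contrast chose the chromosome, nothing is read from the difference. Those 290 include the 126 of chromosome 8 and 124 of the 147 bins of chromosome 6, whose median bin was at 1.30. On the 16 reference chromosomes 40 of 1910 bins were at 1.2 or more, 21 of them on chromosome 14, and the highest stood at 1.34. The single bin of chromosome 8 under the mark begins at 115 Mb with 1.17 (1.06 to 1.29). The nearest bins inside the mark begin at 72 Mb with 1.21 (1.11 to 1.33) and at 24 Mb with 1.24 (1.15 to 1.35).

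**Figure D2:**
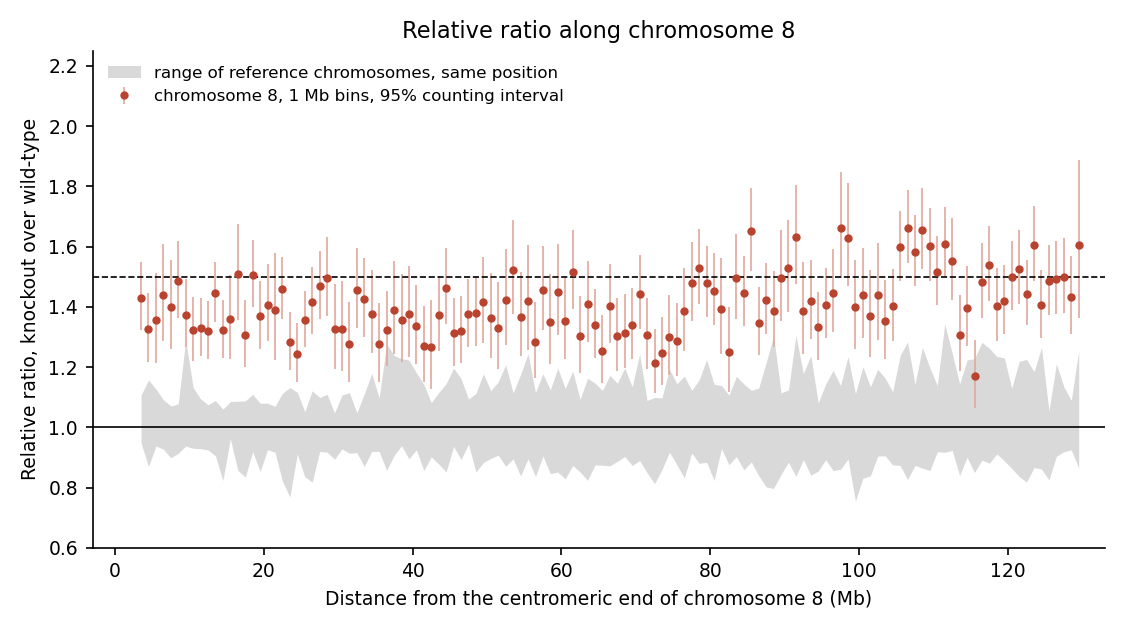
Relative ratio, knockout over wild-type, of each 1 Mb bin of chromosome 8 against distance from the centromeric end in Mb. Bars are 95% counting intervals, the grey band spans the lowest to the highest reference chromosome at the same position, and lines mark 1 and 1.5. The bins sit between 1.17 and 1.66, above the band in all bins but the lowest one at 115 Mb, with a run of high bins from 105 to 113 Mb.

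In a nucleus with 3 copies of a chromosome in place of 2, trans contacts that scale with copy number would stand at a ratio of 1.5. The estimate below assumes such scaling, and 2 copies of the reference chromosomes in both libraries and of chromosome 8 in the wild-type cells. None of these assumptions was tested. The median bin times 2 then gives 2.80 copies of chromosome 8 per knockout cell, with 2.67 and 2.96 at the quartiles of the bins. If cells held either 2 or 3 copies, 80.4% of them would hold 3. The choice of divisor weighs more than counting error. From the ratio of the chromosome as a whole in place of the median bin, with the highest reference chromosome as the only divisor, the estimate is 2.56 copies (56% of cells), and with the lowest it is 2.91 (91% of cells). By bins, 22 were at 1.5 or more. The intervals of 82 bins included 1.5, those of 42 lay below it and those of 3 above it. Feeder cells with 2 copies would lower the value, and their share was not measured.

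The libraries were also read each on its own. In each, pairs per bin were predicted from known bases, gene count, GC content and GATC sites with a least squares fit to bins of the reference chromosomes. Chromosome 8 had 1.34 times the expected pairs (1.33 to 1.35) in the knockout library. The 16 reference chromosomes, each left out of its own fit, lay between 0.819 and 1.21 there, with an SD of 0.119 and 0 of 16 above chromosome 8. In the wild-type library chromosome 8 had 0.958 times the expected pairs (0.953 to 0.963). The reference chromosomes lay between 0.845 and 1.18 in that library, with an SD of 0.105, and 10 of 16 stood above chromosome 8. Chromosome 8 lay inside the range of the reference chromosomes in the wild-type library and above it in the knockout library. The pairs are those whose raised knockout share chose the chromosome, so nothing is read from its place above the range. Chromosome 6, which is no reference chromosome, had a higher value than chromosome 8 in both libraries, with 1.38 in the knockout library and 1.07 in the wild-type library.

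The raised ratio was spread along the chromosome. In windows of 10 Mb from 3 Mb on, the last one shorter, the lowest of 13 stood at 1.34 (1.30 to 1.38), from 63 to 73 Mb, and the highest at 1.56 (1.53 to 1.60), from 103 to 113 Mb. The former held 9986 wild-type and 9523 knockout pairs, and the latter 12593 and 13039. Before the division by position the window from 103 to 113 Mb stood at 1.35, below the 1.48 of that from 13 to 23 Mb. In the terms of the estimate above, the windows give 2.67 to 3.13 copies. The largest difference between the parts on either side of any bin border, with at least 10 bins on each side, was 0.11 on the log2 scale at 83 Mb, with the distal side higher. On the reference chromosomes the largest such difference ran from -0.17 to 0.20. No window had an interval that reached down to 1, but the pairs are those that chose the chromosome, so nothing is read from that.

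Bins of chromosome 8 differed from one another by more than counting gives. The SD of the log2 relative ratio over bins was 0.10, where counting alone gives 0.07, so that the variance was 2.36 times that of counting. Excess of this kind was present on the reference chromosomes too, with 1.16 to 2.92 times the counting variance, and 12 of 16 had a lower value than chromosome 8. Neighbouring bins of chromosome 8 had a correlation of 0.383, against -0.023 to 0.667 on the reference chromosomes. The counting intervals of 24 of the 127 bins left out the median of the chromosome (18.9%), 16 of them above it and 8 below. Over chromosomes 2 to 19, with each bin set against the median of its own chromosome, the share was 16.8% (367 of 2184).

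**Figure D3:**
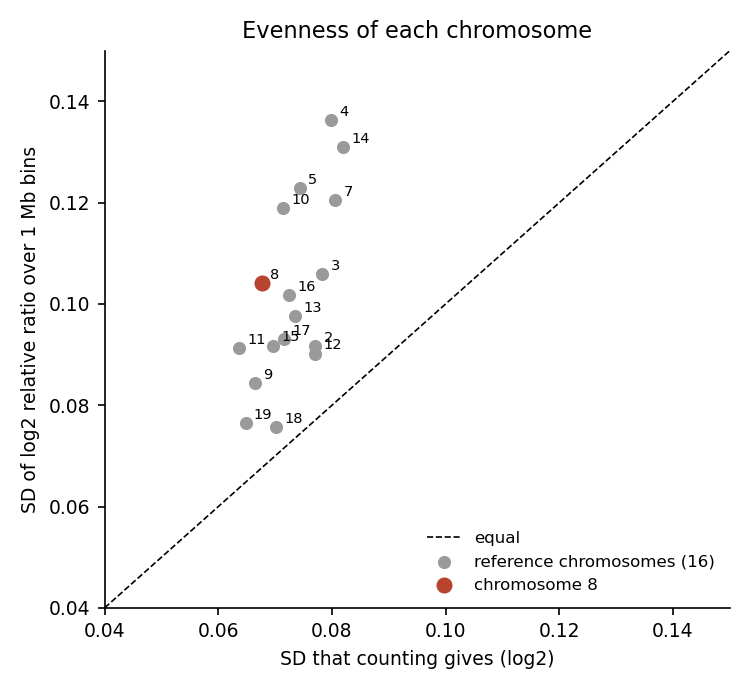
SD of the log2 relative ratio over 1 Mb bins of each chromosome against the SD that counting alone gives, both on the log2 scale, with the dashed line where they are equal. Chromosome 8, at 0.10 against 0.07, lies among the 16 reference chromosomes, all of which are above the line.

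The unevenness had some structure. The last 20 Mb of the chromosome stood at 1.47 and the first 20 Mb at 1.39. The difference was 0.08 on the log2 scale (0.02 to 0.13, from the spread over 20 bins at each end). That interval takes bins as independent, though neighbouring bins had a correlation of 0.383, so it is no test. The direction of the difference rests on the division by position, since the difference was -0.21 without it. With knockout first ends on chromosome 2 it was 0.15, and with those on distal chromosome 1 it was -0.06. The same difference on the reference chromosomes ran from -0.11 to 0.25, and 13 of 16 were lower. The longest run of bins at 1.5 or more held 8 bins, from 105 to 113 Mb. It was picked after its values were seen. The run as a whole stood at 1.60 (1.56 to 1.64), with 10591 wild-type and 11140 knockout pairs. The 10 bins before it stood at 1.44 (1.40 to 1.49) and the 10 bins after it at 1.43 (1.39 to 1.47). Undivided, the run stood at 1.37, the bins before it at 1.28 and those after it at 1.27. The run holds 132 coding genes.

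Whether a bin keeps its place when other pairs are counted was read by splitting the first ends into those at 3 to 45 Mb and those past 45 Mb of proximal chromosome 1, which share no pair. Over the 127 bins the log2 relative ratios of the 2 stretches had a Pearson correlation of 0.335. The reference chromosomes ran from -0.15 to 0.508, with 13 of 16 below chromosome 8. The bin at 106 Mb was at 1.74 (1.55 to 1.94) in one stretch and 1.66 (1.51 to 1.83) in the other. The bin at 115 Mb was at 1.13 (0.973 to 1.31) and 1.27 (1.12 to 1.44). The highest and the lowest bin stayed apart in both stretches, but neither was the extreme bin of a stretch. At 3 to 45 Mb the bin at 108 Mb was higher (1.77) and that at 42 Mb lower (1.12). Past 45 Mb the bin at 85 Mb was higher (1.79) and that at 75 Mb lower (1.17). The bins at 106 and 115 Mb were chosen on the sum of the same pairs, and bins of a chromosome share libraries and base composition.

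Gene-rich DNA tends to lie in the active compartment of the nucleus and makes more trans contacts. On chromosome 8, which has 1043 coding genes, log2 pairs per bin rose with gene count (log2 of the count plus 1) in both libraries, with correlations over 127 bins of 0.552 (wild-type) and 0.537 (knockout). By rank the relative ratio followed gene count far less, with a Spearman correlation of 0.124. For pairs the Spearman correlation was 0.625 (wild-type) and 0.598 (knockout). The Pearson correlation of the log2 relative ratio with the plain gene count was 0.159. On the reference chromosomes that correlation ran from -0.196 to 0.407. The correlation was 0.192 with GC content and -0.223 with the number of GATC sites, and both values lie inside the range of the reference chromosomes.

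The 42 bins with most genes, at least 8 each, had a mean relative ratio of 1.44. The 42 bins with fewest genes, at most 2 each, had a mean of 1.41. The difference was 0.03 on the log2 scale, and its interval from the spread over bins included 0 (-0.01 to 0.07). It was 0.0780 between the top and bottom 10% of bins, 0.23 with the smaller wild-type run alone over 37 bins, 0.02 with the same run over all 127 bins (10 pairs per bin) and 0.13 with the smaller knockout run alone (10 pairs per bin). The 18 bins without a coding gene ran from 1.27 to 1.66 with a median of 1.39. The raised ratio was thus present where chromosome 8 has no coding gene as well as where it has many.

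Sorting chromosome 1 by gene count as well gave the same picture. Pairs between gene-rich bins of both chromosomes were at 1.42 (1.39 to 1.44) and pairs between gene-poor bins of both at 1.42 (1.38 to 1.46). Pairs of gene-rich chromosome 1 with gene-poor chromosome 8 were at 1.38 (1.35 to 1.42), and the converse at 1.43 (1.39 to 1.47). The odds that like pairs with like, which copy number leaves unchanged, on the log2 scale were 0.58 (0.53 to 0.63) for wild-type cells and 0.75 (0.70 to 0.80) for knockout cells. The knockout value was higher by 0.16 (0.09 to 0.23). All 16 reference chromosomes also had a higher value in the knockout library, by 0.02 to 0.24, so this change was not particular to chromosome 8. On chromosomes 7, 13, 14, 16 and 19 the counting interval of the difference included no change.

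**Figure D4:**
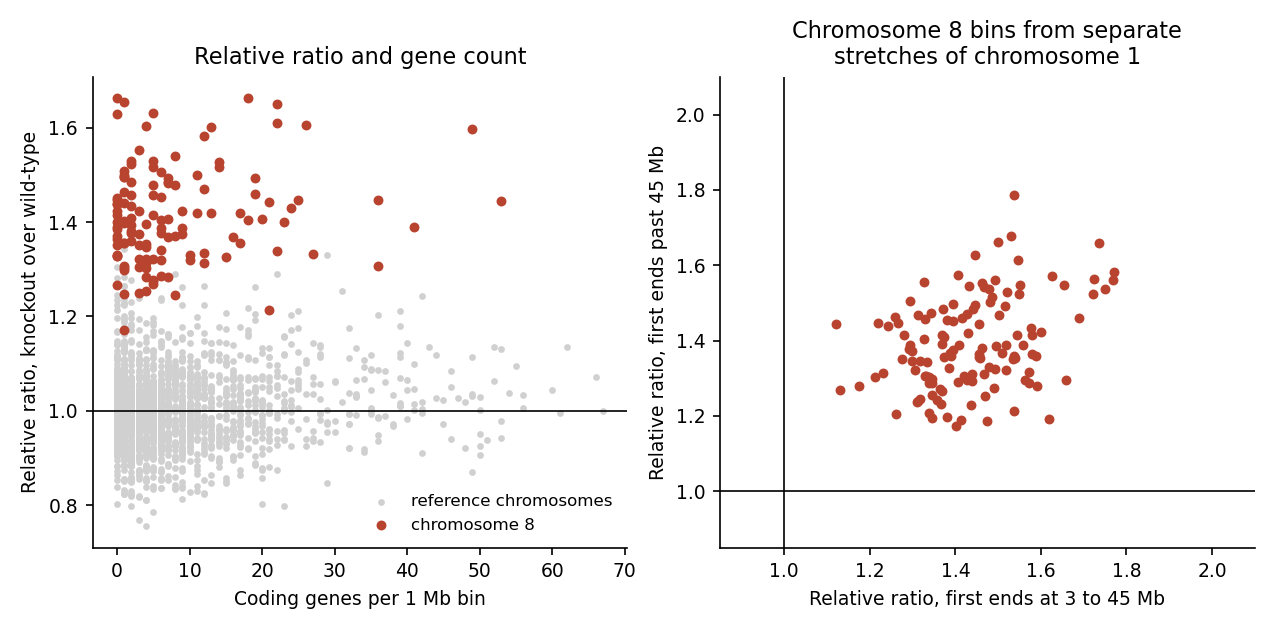
Left, relative ratio of each 1 Mb bin against its number of protein-coding genes, for chromosome 8 and the reference chromosomes. Right, relative ratio of each bin of chromosome 8 from first ends at 3 to 45 Mb of chromosome 1 against that from first ends past 45 Mb. Bins of chromosome 8 lie above 1 at every gene count, and in the right panel all lie above 1 on both axes with a loose relation (correlation 0.335).

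Named genes were read through the 1 Mb bin that holds their midpoint. The values are contact counts of a whole bin and say nothing of a gene's expression. Among 9 genes of pluripotency and chromatin regulation, which lie in 8 bins, all bins were at 1.2 or more, as were 126 of all 127 bins, with a median of 1.47 beside 1.40 over all bins. *Cdh1*, which encodes the adhesion protein E-cadherin that holds ES cell colonies together, lies in the highest bin of the chromosome. That bin had 1430 wild-type and 1567 knockout pairs, and its relative ratio was 1.66 (1.55 to 1.79). Its rank rests on the division by position. Undivided, it was at 1.43, and the highest bin was that at 16 Mb with 1.59. *Ctcf*, whose product anchors chromatin loops, and *Cbfb*, the partner of RUNX transcription factors, share the bin at 105 Mb with 1436 and 1489 pairs, at 1.60 (1.49 to 1.72).

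At the other end of this group, *Klf2*, a transcription factor of the naive pluripotency network, lies in the next to lowest bin of all. Its bin had 1092 wild-type and 960 knockout pairs, at 1.21 (1.11 to 1.33). *Zfp42*, which encodes the ES cell marker REX1, was at 1.37 (1.25 to 1.50), close to the median bin. *Smarca5*, the ATPase of a nucleosome-sliding complex, was at 1.45, *Smad1*, a transducer of BMP signals, at 1.48, *Nanos3*, a germ cell RNA-binding protein, at 1.45 and *Sall1*, a zinc finger transcription factor, at 1.50. The intervals of these 5 bins overlap one another.

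Of 9 developmental regulators in 7 bins, 6 bins were at 1.2 or more, all but the single bin of the chromosome under that mark. Their median was 1.46. *Maf*, a leucine zipper transcription factor of lens development, is the single coding gene of the lowest bin, with 938 wild-type and 764 knockout pairs. Its relative ratio was 1.17 (1.06 to 1.29). *Irx3*, an Iroquois homeobox gene, lies at 91 Mb in a bin with 745 and 812 pairs at 1.63 (1.47 to 1.80). Its neighbours of the same family, *Irx5* and *Irx6*, lie in the next bin with 678 and 638 pairs at 1.39 (1.24 to 1.55), and the intervals of the 2 bins overlap. *Foxf1* and *Foxc2*, forkhead genes of mesoderm and vessels, share a bin at 1.53 (1.41 to 1.66). *Hand2*, a regulator of heart and limb development, was at 1.46, *Nrg1*, a ligand of ERBB receptors, at 1.46 and *Nkx6-3*, a homeobox gene of the stomach, at 1.28 (1.19 to 1.38).

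Of 5 genes for the ribosome and its assembly, which lie in 4 bins, all bins were at 1.44 or more, as were 44 of all 127 bins, and their median was 1.59. With the 20 kb stretch kept, the *Rpl13* bin was at 1.28 and the median at 1.51. *Utp4*, part of the complex that processes the small subunit's RNA in the nucleolus, shares the highest bin with *Cdh1*. *Nip7* and *Nob1*, which act in the maturation of ribosomal subunits, share the bin at 107 Mb with 1376 and 1480 pairs, at 1.58 (1.47 to 1.70). *Rpl13*, a protein of the large subunit, lies in the bin from which the 20 kb stretch was left out, at 1.61 (1.49 to 1.74). *Ddx49*, an RNA helicase, lies in a bin at 1.44 (1.32 to 1.57). Of these 4 bins, 2 belong to the run from 105 to 113 Mb and are neighbours, so the 5 genes are not separate readings.

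The 7 genes of replication and growth lie in 7 bins, from 1.36 to 1.65. *Orc6*, a subunit of the origin recognition complex, was highest with 1051 wild-type and 1221 knockout pairs, at 1.65 (1.52 to 1.79). *Fgfr1*, a fibroblast growth factor receptor, was lowest with 1615 and 1749, at 1.36 (1.27 to 1.45). *Rbl2*, a relative of the retinoblastoma protein, shares the bin of *Irx3*, and *Terf2*, a protein of the telomere cap, that of *Nip7*. *Cdt1*, which licenses origins, was at 1.44 and *Wrn*, a DNA helicase, at 1.42. *Insr*, the insulin receptor gene and the one nearest the centromeric end among these, was at 1.43 (1.32 to 1.55).

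The 28 alpha-defensin genes (*Defa*), which encode antimicrobial peptides of the gut, lie in 1 bin at 21 Mb with 462 wild-type and 512 knockout pairs, at 1.39 (1.22 to 1.58). The 24 beta-defensin genes (*Defb*) lie in 4 bins from 1.37 to 1.51. The 19 carboxylesterase genes (*Ces*) lie in 3 bins from 1.40 to 1.60, and the metal-binding metallothioneins *Mt1*, *Mt2* and *Mt3* share a bin at 1.33 (1.23 to 1.45). Near-identical copies can lose reads to the mapping filter, and the low counts of the *Defa* bin were shared by both libraries.

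The other extreme bins complete the picture. The next highest bin, at 97 Mb, holds no coding gene and had 660 wild-type and 739 knockout pairs, at 1.66 (1.49 to 1.85). The one after it, at 108 Mb, holds *Zfhx3*, a large homeobox transcription factor, as its only coding gene and had 1159 and 1243 pairs, at 1.65 (1.53 to 1.79). The bin at 24 Mb, among the 3 lowest, had 1290 and 1284 pairs and holds *Ido1* and *Ido2*, which break down tryptophan, *Tcim*, and the membrane proteases or relatives *Adam3*, *Adam5*, *Adam9*, *Adam18* and *Adam32*. The *Cdh1* bin holds 18 coding genes and the *Klf2* bin 21.

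The knockout list went on past the end of the wild-type list, and its further pairs were not used to choose the chromosome. Among knockout pairs with the first end on chromosome 2, of which 984632 were trans, 74967 ended on chromosome 8. No wild-type pairs of that source were analysed here, so they were set against the same wild-type pairs of chromosome 1 as before. The median bin of chromosome 8 was then at 1.40, with bins from 1.11 to 2.23, and 92.9% of the 127 bins were at 1.2 or more. The medians of 15 reference chromosomes lay between 0.914 and 1.13, and 285 of their 1739 bins were at 1.2 or more.

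Knockout pairs with the first end on distal chromosome 1, past about 91 Mb, gave a lower value. Of 1856131 trans pairs, 120877 ended on chromosome 8, the median bin was at 1.198 and 61 of 127 bins were at 1.2 or more. On the reference chromosomes 203 of 1910 bins were at 1.2 or more with this source. The medians of 16 reference chromosomes ranged from 0.835 to 1.26 with this source, so the median of chromosome 8 was inside that range. The spread over bins was wide with both sources, with an SD of 0.22 on the log2 scale for chromosome 2 and 0.17 for distal chromosome 1 where counting gives 0.08 and 0.07. Each of these comparisons sets different first ends against each other in the 2 libraries, and what a source prefers cannot be told apart from a difference between the libraries.

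Within the knockout library the sources could be compared with no wild-type pair. The share of chromosome 8 among partners of chromosome 2, over its share among partners of proximal chromosome 1, was 0.987 (0.978 to 0.996) relative to the median of 15 reference chromosomes, which lay between 0.933 and 1.09. For distal chromosome 1 it was 0.948 (0.941 to 0.956), with 16 reference chromosomes between 0.830 and 1.27. Both values lie inside the range of the reference chromosomes. Along proximal chromosome 1 the relative ratio also changed little. In 9 windows of first ends, 8 of 10 Mb and 1 shorter, it stood between 1.38 and 1.41.

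The run from 105 to 113 Mb differed by source. It was at 1.88 (1.82 to 1.94) from chromosome 2 and at 1.19 (1.16 to 1.22) from distal chromosome 1, against 1.60 from proximal chromosome 1. The 10 bins before it were at 1.24 from chromosome 2 and at 1.40 from distal chromosome 1, and the 10 bins after it at 1.53 and 1.15. The run was picked on the ratio from proximal chromosome 1, and all 3 sources are set over the same wild-type pairs. The *Cdh1* bin was at 2.23 from chromosome 2 and at 1.19 from distal chromosome 1, and the *Maf* bin at 1.17 and 1.17.

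**Figure D5:**
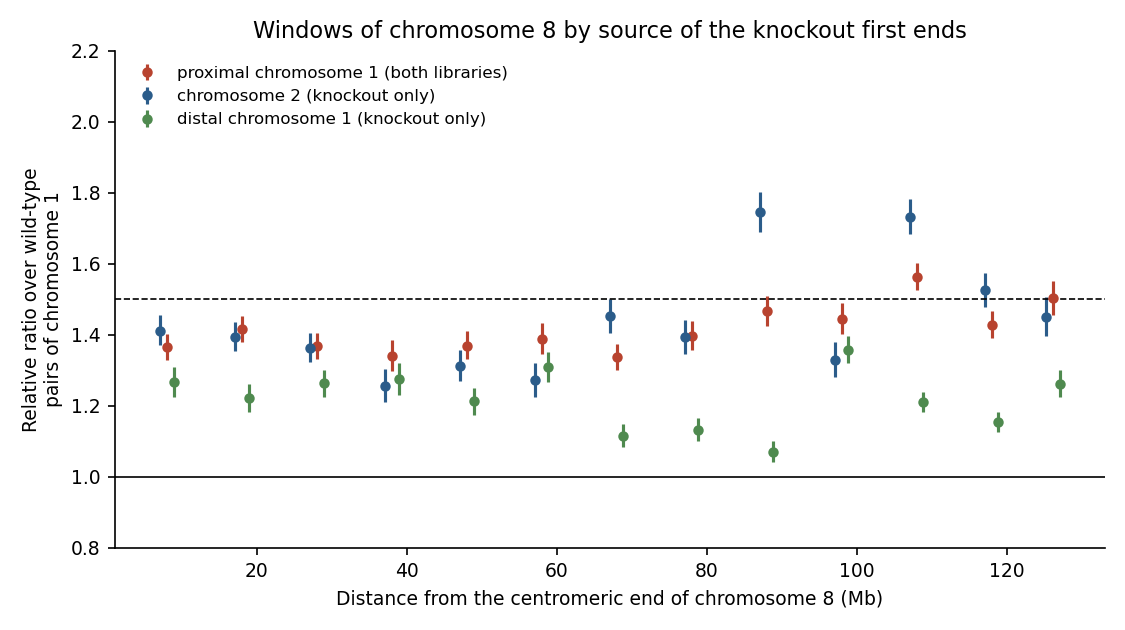
Relative ratio of 13 windows of chromosome 8 against distance from the centromeric end in Mb, for knockout first ends on proximal chromosome 1, on chromosome 2 and on distal chromosome 1, each over wild-type pairs of proximal chromosome 1. Bars are 95% counting intervals and lines mark 1 and 1.5. Windows run from 1.34 to 1.56 for the matched source, from 1.26 to 1.75 for chromosome 2 and from 1.07 to 1.36 for distal chromosome 1.

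The share of chromosome 8 was alike in the sequencing runs of each library. In the wild-type library it was 5.38% (5.35 to 5.41) in the larger run and 5.44% (5.34 to 5.54) in the smaller. In the knockout library it was 7.22% (7.19 to 7.26) and 7.30% (7.11 to 7.48). Within each library the intervals of the runs overlap. The runs of the different libraries lie apart, but they split the pairs that chose the chromosome, so nothing is read from that gap. Whether a run is a replicate is not stated.

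The 20 kb stretch left out of the *Rpl13* bin had 401 wild-type and 70 knockout pairs. With it the bin falls from 1.61 to 1.28.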

How the data were processed

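The authors deposited 1 list of Hi-C read pairs per library, with the position, restriction fragment and mapping quality score of each end. Per the labels and the submitters' processing notes, libraries were sequenced as paired ends and processed with CASAVA 1.8, Bowtie2 and HiC-Pro on mm10. The deposited mapping quality scores ran from 11 to 42 and the summed distance to restriction sites from 100 to 600 bp. The lists run in order of the first end, and only their beginnings were analysed. They reached position 90862049 of chromosome 1 (wild-type) and 42080638 of chromosome 2 (knockout). The last, incomplete line of each was dropped.

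Pairs, which the authors had not normalized in the deposited files, with the first end at 3 to 90.75 Mb of chromosome 1 were counted per 1 Mb bin, without chromosome 8 from 123.42 to 123.44 Mb, as shares of trans pairs to assembled chromosomes. Bins needed 100 pairs in each library. Pairs with contigs were left out (17757 wild-type, 14162 knockout). Intervals are exact binomial (Clopper-Pearson) for shares and exact binomial splits for ratios of shares. The latter take the reference median as fixed. For observed over expected pairs and for log2 odds they are normal approximations to counting error. For the end difference and the gene-rich difference they come from the spread over bins. Genes came from RefSeq on GRCm38, with 1 bin per gene by its midpoint. The genes named were those of 5 lists and 3 clusters, whatever their values, and the genes of the 3 highest and 3 lowest bins, of which the *Cdh1* and *Klf2* bins are given by a few genes. A further 2 genes, first listed with them, are not reported here. Members and lists were chosen with earlier results of these data known. No test was run, as each group has 1 library. The functions were tested on simulated pairs. Python 3.11.15, numpy 2.4.6, scipy 1.17.1 and pandas 2.3.3 were used.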

Additional observations from a re-analysis of the deposited data

How the results depend on the processing

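The reference chromosomes spread more (SD 0.034) than counting error, and bins from 125 Mb on rest on 6 of them. The median ratio (1.40) and the copy estimate (2.80) moved beyond the counting error of the main setting in 5 of 33 alternatives and kept their direction in all. These were the smaller wild-type run (1.38 and 2.75, over 37 bins), the same fraction of length as divisor (1.39 and 2.78), first ends at 3 to 45 Mb (1.43 and 2.86), first ends past 45 Mb (1.37 and 2.75) and the smaller knockout run with 10 pairs per bin (1.42 and 2.835). The 33 include leaving out each of the 16 reference chromosomes in turn, which moved neither value beyond that error. The smaller runs have wider counting intervals of their own. For the chromosome as a whole these were 1.34 to 1.40 (wild-type run) and 1.37 to 1.45 (knockout run). Both include the 1.39 of all pairs, so the shifts with these runs do not exceed their own counting error.

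Bins at 1.2 or more numbered 30 of 37 with the smaller wild-type run, or 105 of 127 with 10 pairs per bin, 101 of 127 with the smaller knockout run and 10 pairs per bin, 64 of 64 at 2 Mb and 26 of 26 at 5 Mb. The share of reference bins at 1.2 or more is not given for these settings. That of the main setting need not hold for them, so nothing is read from these counts. The SD over bins was 0.24 with the smaller wild-type run, or 0.22 with 10 pairs per bin, 0.25 with the smaller knockout run and 10 pairs per bin, 0.0826 at 2 Mb, 0.0706 at 5 Mb, 0.13 with first ends at 3 to 45 Mb and 0.13 past 45 Mb. The smaller runs hold 10986 (wild-type) and 5497 (knockout) pairs of chromosome 8, and fewer pairs per bin give a larger counting error. The SD from counting alone is not given for these settings, so these values do not measure unevenness by themselves. The drift reversed to -0.21 without division by position, where the decline seen on all 16 reference chromosomes is left in. The gene-rich difference was 0.23 with the smaller wild-type run, or 0.02 with 10 pairs per bin, 0.13 with the smaller knockout run and 10 pairs per bin, and 0.0780 with the top and bottom 10% of bins.

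Observed over expected pairs in the knockout and wild-type libraries were 1.31 and 0.935 at mapping quality 30, 1.26 and 0.950 at 500 pairs per bin, 1.38 and 0.980 with long reference chromosomes, 1.38 and 0.984 with first ends at 3 to 45 Mb, 1.30 and 0.936 past 45 Mb, and 1.35 and 0.971 from known bases alone. The wild-type value was 0.966 with the smaller wild-type run and 0.971 with 10 pairs per bin. The value from chromosome 2 (1.40) was 1.32 with the smaller wild-type run, 1.35 with 10 pairs per bin, 1.39 with the smaller knockout run and 10 pairs per bin, 1.38 at 5 Mb, 1.28 at 500 pairs per bin, which kept 593 of 1739 reference bins, 1.35 by fraction of length, 1.31 by summed reference pairs, 1.39 with long reference chromosomes, and 1.198 from distal chromosome 1. It was 1.34 over wild-type first ends at 3 to 45 Mb of chromosome 1 and 1.44 over those past 45 Mb. Only the wild-type side was split there, and the knockout first ends on chromosome 2 stayed the same. The cause of these shifts was not tested. The alternatives with 10 pairs per bin, without single reference chromosomes and without the run of high bins were chosen after seeing the data. The smaller knockout run left too few bins at 100 pairs for a value. No paired analysis was possible because the lists name no replicate.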
